A study of Mus musculus with 2 samples.

Results

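The RNA of 10 genes of the Hippo pathway was followed in cultured mouse skin fibroblasts given IL-17A or vehicle. They are the coactivators Yap1 and Wwtr1 (the gene for TAZ), the transcription factors Tead1, Tead2, Tead3 and Tead4, the kinases Lats1 and Lats2, and the target genes Ankrd1 and Amotl2. They were chosen by name, and all 10 had a row among the 19674 rows of the count table. RNA came from MDFB fibroblasts of wild-type genotype, 1 library from cells given IL-17A and 1 from cells given vehicle, both under the same batch label. The labels give no dose, no treatment time and no origin of MDFB beyond skin, and nothing says whether several cultures were pooled. In bulk RNA, fewer cells making a transcript and less transcript per cell cannot be told apart.

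In the Hippo pathway, the kinases Stk3 and Stk4 with the scaffold Sav1 activate Lats1 and Lats2, which phosphorylate YAP and TAZ and keep them out of the nucleus. YAP and TAZ that escape this enter the nucleus, bind TEAD factors and switch on genes such as Ankrd1, Ccn1 and Ccn2. Amotl2 and Lats2 are targets too, and since both proteins restrain YAP and TAZ they form a negative feedback. In fibroblasts the pathway responds to cell density, cell shape and stiffness of the matrix. RNA counts measure neither the phosphorylation nor the location of YAP and TAZ.

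The TEAD factors bind DNA at the letters GGAATG. The 30 bases around each GGAATG found near the promoters of the targets Ankrd1 and Amotl2, the coactivators Wwtr1 and Yap1, and Tead3 are shown so that the letters can be set beside the ratios of these genes. The search covered the 250 bases before the outermost start listed for each gene in a RefSeq promoter table on GRCm38.p6, the assembly also named mm10. Sites are read 5′ to 3′ along the gene, with capitals for GGAATG or, on the other strand, CATTCC. They lie at chr19:36120037-36120066 and chr19:36119950-36119979 (both minus strand) for Ankrd1, chr9:102717727-102717756 (plus strand) for Amotl2, chr3:57576029-57576058 (minus strand) for Wwtr1, chr9:8004720-8004749 (minus strand) for Yap1 and chr17:28350970-28350999 (minus strand) for Tead3.
Ankrd1 first site: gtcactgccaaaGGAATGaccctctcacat
Ankrd1 second site: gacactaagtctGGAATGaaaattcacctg
Amotl2: ctgaaactctcaCATTCCtggcatagcagc
Wwtr1: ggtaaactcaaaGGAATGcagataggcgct
Yap1: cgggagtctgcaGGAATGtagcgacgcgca
Tead3: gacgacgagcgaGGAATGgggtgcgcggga
From the listed starts, the matches stand at -210 to -205 and -123 to -118 in Ankrd1, at -65 to -60 in Amotl2, at -136 to -131 in Wwtr1, at -141 to -136 in Yap1 and at -182 to -177 in Tead3. The listed starts are not the outermost of every gene model. Those of Amotl2, Lats2, Yap1 and Lats1 lie 713, 89, 42 and 9 bases inside the RefSeq gene span. For Amotl2 the window does not reach the outer end of that span. For Lats2, Yap1 and Lats1 the outer end falls inside the window, so the window holds some bases of the gene. The GENCODE spans of Amotl2, Ankrd1 and Lats2 run past the outer end of their windows. That of Lats2 reaches 57758388 on chromosome 14, while its window covers 57746124 to 57746373, so its outermost start there was not searched. In GENCODE, an exon covers the match in 2 of the 14 Amotl2 transcripts and both matches in 1 of the 6 Ankrd1 transcripts. Of the 8 genes among the 10 with a promoter entry, 5 held a match, while Tead2, Lats1 and Lats2 held none in this window. On either strand, 12.6% of the 27025 promoters of all genes, cut to the same window, held GGAATG, and 1.025% held it at 2 or more places, as Ankrd1 did. TGANTCA, the letters bound by AP-1, stood in 0 of the 8 windows and in 6.85% of all promoters. A match describes the letters, not a bound site.

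Of the 10 genes, Tead4 alone was past 2-fold. Tead4 RNA was 2.43-fold higher with IL-17A, Lats2 was 1.49-fold higher, and Wwtr1, Amotl2 and Ankrd1 were 1.28-fold to 1.29-fold higher. Yap1 had nearly the same level in both libraries, whereas Tead2 and Tead3 were 1.27-fold and 1.19-fold lower with IL-17A. At the limit of 2-fold used here, 1 of the 10 was higher and 0 were lower. Of the 13534 genes with at least 50 counts over both libraries, called measured here, 5.19% were at least 2-fold higher and 3.69% at least 2-fold lower, 8.88% together. The absolute log2 ratio had a median of 0.21 over all measured genes, and 7 of the 10 lay beyond it. Outside 1.5-fold there was again only Tead4 among the 10, against 10.1% of measured genes higher and 8.25% lower, 18.3% together.

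With 1 library per group there is no replicate check and no test. The intervals given are exact 95% Clopper-Pearson intervals of the part of each gene's reads that came from the IL-17A library, turned into a ratio. Reads can be PCR copies of the same molecule, so these intervals hold counting error only and say nothing of the spread between cultures. By that error alone, 9 of the 10 intervals lay off a log2 ratio of 0, against 55.1% of measured genes. Of these, 7 lay above 0 and 2 below, against 28.7% and 26.5% of measured genes. These shares are not matched for read depth, and such an interval narrows as counts rise. Apart from Tead4 and Ankrd1, the 10 had mean CPM values above those of 82.6% (Lats1) to 97.6% (Amotl2) of measured genes. The library of IL-17A-treated cells held 23559416 counts and the vehicle library 24427027. Levels are in CPM, counts scaled to a common library size after TMM scaling, which corrects for a difference in make-up between the libraries.

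**Figure D1:**
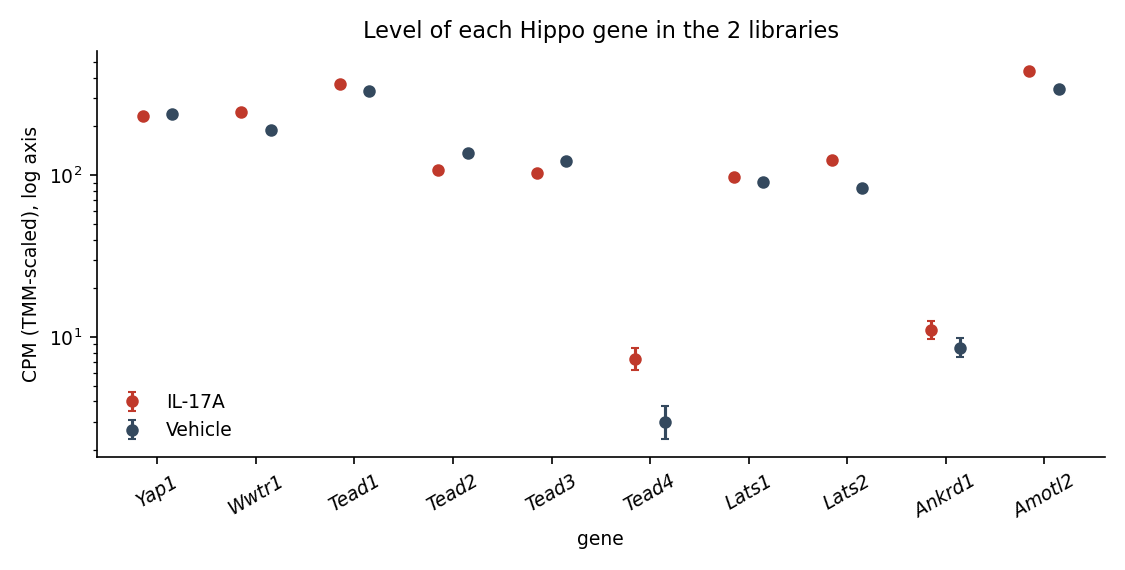
Level of each of the 10 Hippo genes in CPM on a log axis, with the IL-17A library in red to the left of the vehicle library in dark blue and bars for the exact 95% Poisson interval of the count. Tead4 shows the widest gap, at 7.30 CPM with IL-17A and 2.999 CPM with vehicle.

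Among the coactivators, Yap1 had 5309 counts (231 CPM) with IL-17A and 5935 counts (237 CPM) with vehicle. Its log2 ratio was -0.04 (interval -0.09 to 0.01), and 44.0% of measured genes had a lower ratio. Wwtr1, whose protein TAZ shares most partners with YAP, had 5638 counts (245 CPM) with IL-17A and 4767 counts (191 CPM) with vehicle. Its log2 ratio was 0.36 (interval 0.31 to 0.42), above that of 83.6% of measured genes. The paralogs thus stood apart by counting error alone. The ratio of Wwtr1 to Yap1 counts was 1.32 times as high with IL-17A as with vehicle (exact 95% interval of the odds ratio 1.25 to 1.40). This odds ratio of counts does not depend on how the libraries are scaled.

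The TEAD factors are the DNA-binding partners of YAP and TAZ, and they differed from each other in direction. Tead1 had 8391 counts (365 CPM) with IL-17A and 8326 counts (333 CPM) with vehicle, a log2 ratio of 0.13 (interval 0.09 to 0.18). Tead2 had 2474 counts (108 CPM) with IL-17A and 3402 counts (136 CPM) with vehicle, a log2 ratio of -0.34 (interval -0.41 to -0.26). Tead3 had 2358 counts (102 CPM) with IL-17A and 3044 counts (122 CPM) with vehicle, a log2 ratio of -0.25 (interval -0.33 to -0.17). Tead2 and Tead3 were the lowest of the 10 by ratio, and 16.0% and 21.6% of measured genes lay below them.

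Tead4 had 168 counts (7.30 CPM) with IL-17A and 75 counts (2.999 CPM) with vehicle. Its 2.43-fold ratio had an interval of 1.84 to 3.24, whose lower bound lies inside the 2-fold limit. The mean CPM of Tead4 was above that of 17.8% of measured genes. Among the 25% of measured genes with the lowest mean CPM, 8.24% were at least 2-fold higher and 9.04% at least 2-fold lower. Ratios past 2-fold were thus more common among scarce genes such as Tead4 than over all measured genes.

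Of the 6 pairs within the TEAD family, 5 had an odds ratio whose interval lay off 1. Against Tead1, Tead2 and Tead3, the odds ratio of Tead4 was 2.22 (interval 1.68 to 2.96), 3.08 (interval 2.32 to 4.12) and 2.89 (interval 2.18 to 3.87). Tead1 stood at 1.39 (interval 1.30 to 1.47) against Tead2 and at 1.30 (interval 1.22 to 1.38) against Tead3. Tead3 and Tead2 stood at 1.07 (interval 0.988 to 1.15), so counting error did not separate them and a difference of up to 1.15 times is within the interval. With the Yap1 and Lats pairs, 8 pairs were compared and 7 intervals lay off 1. These intervals too hold counting error only and narrow as counts rise. How often other pairs of genes lie off 1 was not tested, while 55.1% of single measured genes had an interval off a log2 ratio of 0.

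**Figure D2:**
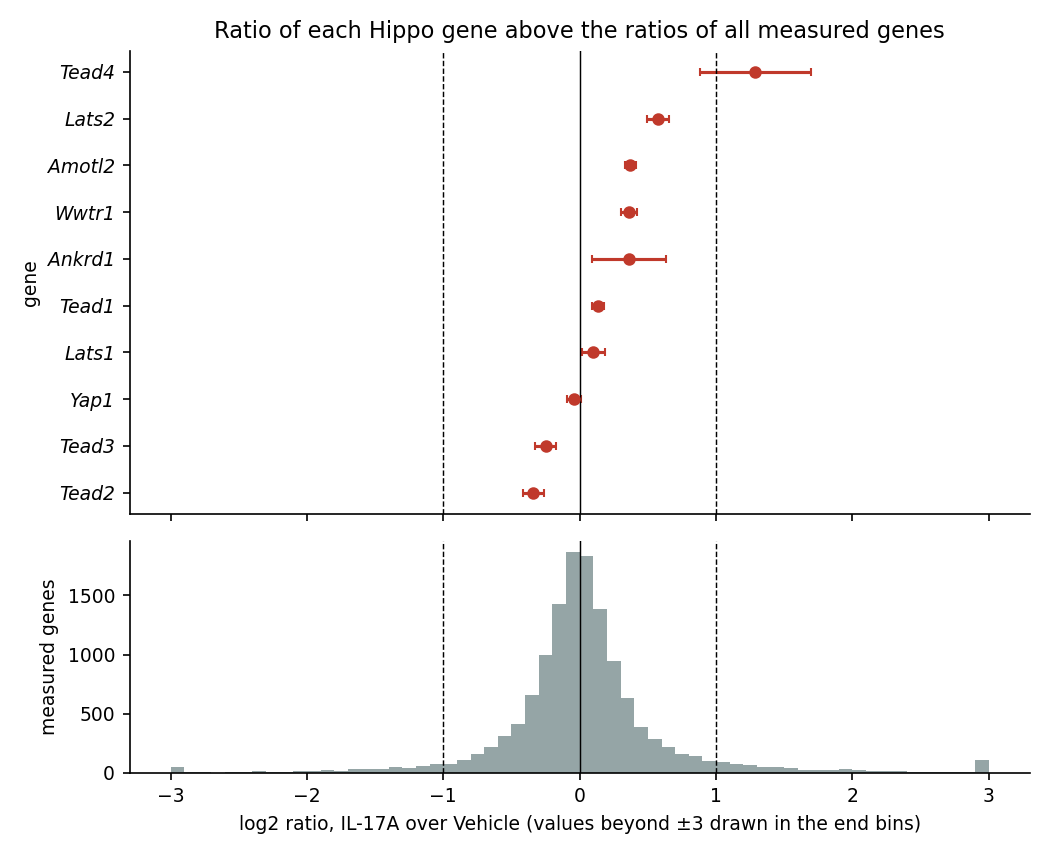
Log2 ratio of IL-17A over vehicle for the 10 Hippo genes with exact 95% counting intervals (top), above the count of measured genes in bins of 0.1 log2 units (bottom), with dashed lines at 2-fold. Tead4 alone lies beyond a dashed line, and the other 9 fall between -0.34 and 0.57.

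Of the kinases, Lats1 had 2230 counts (96.9 CPM) with IL-17A and 2260 counts (90.4 CPM) with vehicle, a log2 ratio of 0.10 (interval 0.02 to 0.19). Lats2, both a kinase of YAP and TAZ and one of their target genes, had 2863 counts (124 CPM) with IL-17A and 2089 counts (83.5 CPM) with vehicle. Its log2 ratio of 0.57 (interval 0.49 to 0.66) was above that of 89.7% of measured genes. The ratio of Lats2 to Lats1 counts was 1.39 times as high with IL-17A as with vehicle (interval 1.28 to 1.51). In GENCODE, the gene model Gm49361 runs along the same strand and shares 42.4% of the exon bases of Lats2. The count table has no row of that name, and how reads in the shared exons were counted was not tested.

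The target genes among the 10 were both higher with IL-17A. Ankrd1, an ankyrin repeat protein of the nucleus and the sarcomere, had 254 counts (11.0 CPM) with IL-17A and 215 counts (8.60 CPM) with vehicle. Its log2 ratio was 0.36 (interval 0.09 to 0.63), the widest interval after that of Tead4. Amotl2, an angiomotin that binds YAP and TAZ at cell junctions, had 10176 counts (442 CPM) with IL-17A and 8547 counts (342 CPM) with vehicle. Its log2 ratio was 0.37 (interval 0.33 to 0.41). Wwtr1, Ankrd1 and Amotl2, each with GGAATG in the window searched, had ratios within each other's counting intervals. Yap1 and Tead3 hold the letters too, with log2 ratios of -0.04 and -0.25. Tead2, Lats1 and Lats2 hold none in the window, with -0.34, 0.10 and 0.57. A link between the letters and the ratios was not tested.

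Ratios near 0 depended on the scaling. Under total-count scaling Yap1 stood at -0.11 (interval -0.16 to -0.05) and Lats1 at 0.03 (interval -0.05 to 0.12), and under upper-quartile scaling at -0.08 (interval -0.13 to -0.03) and 0.06 (interval -0.02 to 0.15). Whether Yap1 and Lats1 lay off 0 beyond counting error therefore changed with the setting. The signs of all 10 stayed the same under the scalings tried.

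Levels of different genes can be compared only per length, as CPM per kilobase of merged exons in GENCODE release M21 (RPKM). With IL-17A the order was Amotl2 at 70.3 RPKM, Wwtr1 at 51.3, Tead1 at 26.9, Yap1 at 24.9, Tead2 at 22.5, Lats2 at 17.8, Tead3 at 15.3, Lats1 at 13.3, Ankrd1 at 3.82 and Tead4 at 2.03 RPKM. With vehicle it was Amotl2 at 54.3 RPKM, Wwtr1 at 39.9, Tead2 at 28.4, Yap1 at 25.6, Tead1 at 24.5, Tead3 at 18.1, Lats1 at 12.4, Lats2 at 12.0, Ankrd1 at 2.98 and Tead4 at 0.833 RPKM. With vehicle, the exact Poisson intervals of the neighbours Yap1 and Tead1 overlapped, as did those of Lats1 (11.9 to 12.9 RPKM) and Lats2 (11.5 to 12.5 RPKM). With IL-17A no neighbours overlapped. Amotl2 was highest, Tead4 lowest and Ankrd1 next to lowest in both libraries, also when the longest protein-coding transcript served as the length. The middle of the order changed with that length, tried after seeing the data. Yap1, for example, has 9.257 kb of merged exons and a longest coding transcript of 4.171 kb.

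Per length, Wwtr1 made up 67.3% of the summed Yap1 and Wwtr1 level with IL-17A and 60.9% with vehicle. With the longest coding transcript as the length these shares were 48.5% with IL-17A and 41.6% with vehicle. Which coactivator was more abundant therefore depended on the length used. Tead1 held 40.3% of the TEAD level with IL-17A and 34.1% with vehicle. Tead2 held 33.7% with IL-17A and 39.5% with vehicle, and Tead3 held 22.9% with IL-17A and 25.2% with vehicle. Tead4 held 3.05% with IL-17A and 1.16% with vehicle, the lowest share in both libraries. With the longest coding transcript as the length, Tead3 held 34.3% with IL-17A and 37.1% with vehicle, and Tead1 34.0% and 28.2%. Summed over merged exons, TEAD RNA was 66.6 RPKM with IL-17A and 71.9 RPKM with vehicle. On the same length, Yap1 with Wwtr1 came to 76.2 RPKM with IL-17A and 65.5 RPKM with vehicle. These sums depend on the length used, so they do not show which family was more abundant. Lats2 held 57.3% of the Lats level with IL-17A and 49.2% with vehicle.

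**Figure D3:**
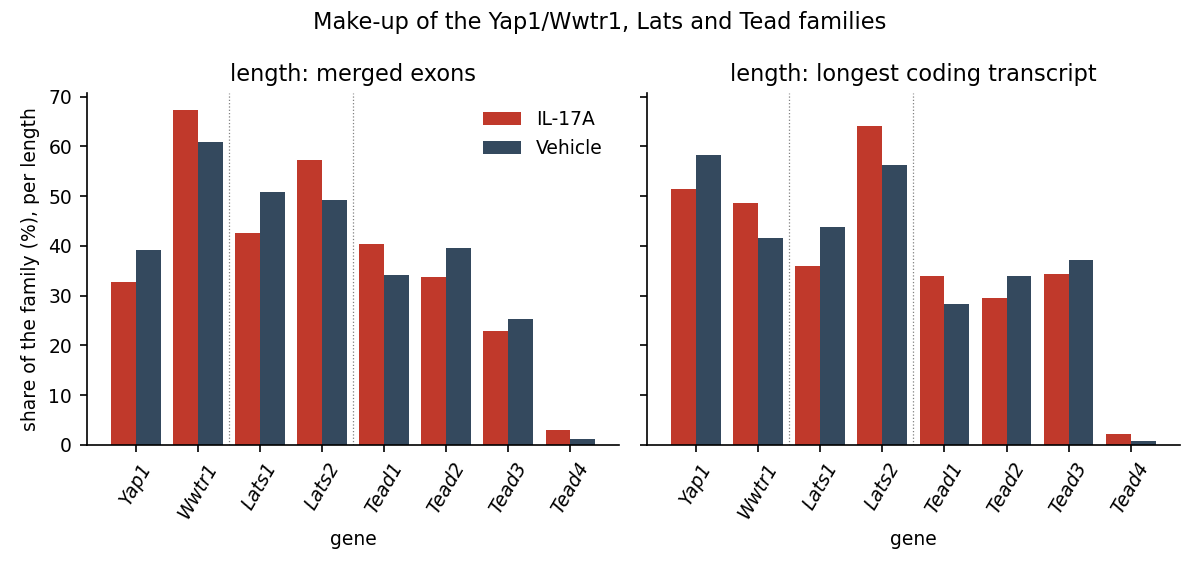
Share of each gene in the summed per-length level of its family, in percent, with the IL-17A library in red to the left of the vehicle library in dark blue, for merged exons (left panel) and the longest coding transcript (right panel). Wwtr1, Lats2, Tead1 and Tead4 take a larger share with IL-17A than with vehicle in both panels, while the order of Yap1 and Wwtr1 turns round between the panels.

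The genes lie apart in the mouse genome, on 8 chromosomes. In GENCODE release M21 on GRCm38, Yap1 is on chromosome 9 at 7931999 to 8004596 and Amotl2 on the same chromosome at 102716672 to 102733418. Wwtr1 is on chromosome 3 at 57455649 to 57575910, Lats1 on chromosome 10 at 7681214 to 7716460, Lats2 on chromosome 14 at 57689662 to 57758388, and Ankrd1 on chromosome 19 at 36111961 to 36120099. Tead1 is on chromosome 7 at 112679318 to 112906807, Tead2 also on chromosome 7 at 45215753 to 45233644, Tead3 on chromosome 17 at 28331671 to 28350817, and Tead4 on chromosome 6 at 128224288 to 128300823. Yap1 shares 1.25% of its exon bases with the transcript Gm20416 on the other strand, and Tead2 shares 13 bases with Cd37. The strand setting of the counting is not stated, so reads there could belong to either gene.

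The wider target list holds 22 genes known as targets of YAP and TAZ, all measured, with Ankrd1, Amotl2 and Lats2 among them. Of these, 2 were at least 2-fold higher with IL-17A and 2 at least 2-fold lower, against 5.19% and 3.69% of measured genes. Foxf2, a forkhead factor of mesenchyme, had 176 counts with IL-17A and 48 with vehicle, 3.99-fold higher (interval 2.88 to 5.60). Nt5e, the ectonucleotidase CD73, had 5567 counts with IL-17A and 2799 with vehicle, 2.16-fold higher (interval 2.07 to 2.26). Ccdc80, a secreted matrix protein, had 7388 counts with IL-17A and 28121 with vehicle, 3.50-fold lower (interval 3.41 to 3.59). The growth factor gene Tgfb2 had 148 counts with IL-17A and 526 with vehicle, a log2 ratio of -1.71.

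The list's most cited members, named here after their values were seen, were within 2-fold. Ccn1, a matricellular protein, had 16224 counts with IL-17A and 9790 with vehicle, a log2 ratio of 0.85. Ccn2, also known as connective tissue growth factor, had 22245 counts with IL-17A and 15263 with vehicle, a log2 ratio of 0.66. At 1.5-fold, 6 of the 22 were higher, adding Ccn1, Gadd45a, Ccn2 and the receptor tyrosine kinase Axl, all named after their values were seen, against 10.1% of measured genes. At the same limit 3 were lower, F3 at a log2 ratio of -0.87 joining Ccdc80 and Tgfb2, against 8.25%. The median log2 ratio of the list was 0.24, with 15 of 22 above 0, against a median of 0.0015 over all measured genes. Without the 3 shared genes the median of the other 19 was 0.13, with 12 above 0. The median of the 10 Hippo genes was 0.25, with 7 above 0.

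**Figure D4:**
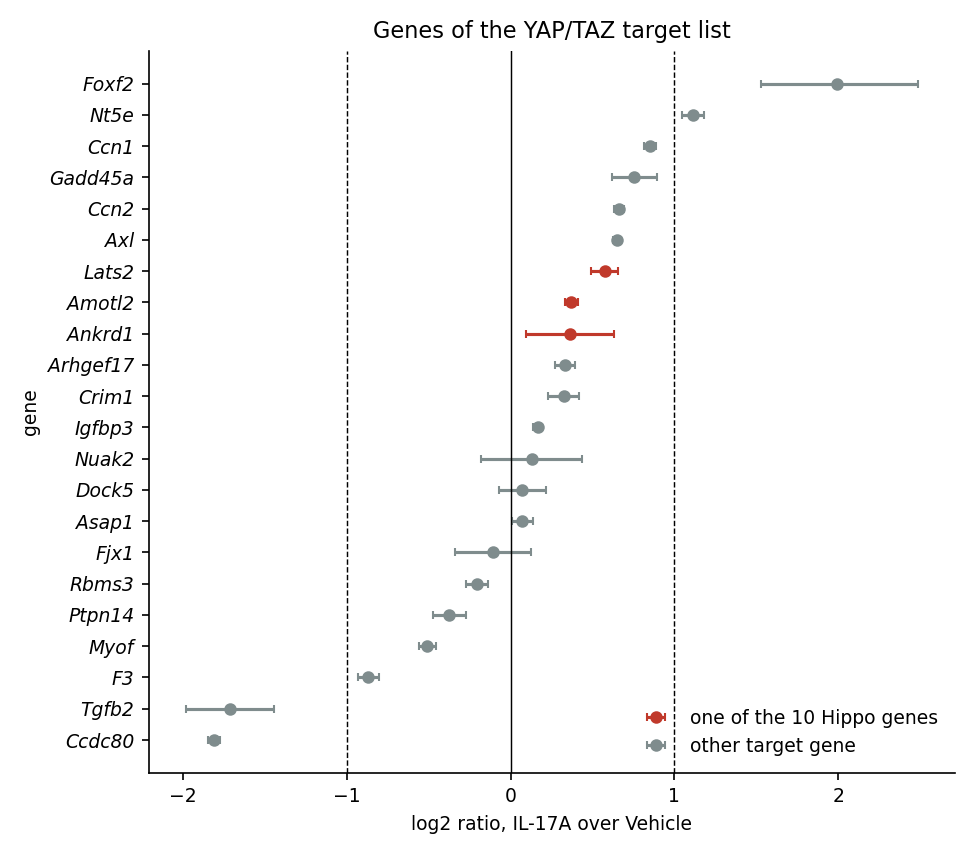
Log2 ratio of IL-17A over vehicle for the 22 genes of the YAP/TAZ target list, with exact 95% counting intervals, dashed lines at 2-fold, and the 3 genes shared with the 10 Hippo genes in red. The list spans from Ccdc80 at -1.81 to Foxf2 at 1.99, with Lats2, Amotl2 and Ankrd1 in the upper middle.

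The list of 18 Hippo kinases and adaptors, Lats1 and Lats2 among them, was measured in full. At 2-fold, 0 were higher and 1 was lower, against 5.19% and 3.69% of measured genes, with 9 above 0, 9 below and a median of 0.03. The counting interval lay above 0 for 8 and below 0 for 6, against 28.7% and 26.5% of measured genes, shares not matched for read depth. Without Lats1 and Lats2, 7 of the other 16 were above 0, with a median of -0.04. Tnik, a kinase of the Map4k group, had 74 counts with IL-17A and 185 with vehicle, 2.30-fold lower (interval 1.75 to 3.05). Its relative Map4k4, which can phosphorylate Lats1 and Lats2, had 14874 counts with IL-17A and 8366 with vehicle, 1.93-fold higher (interval 1.88 to 1.98). Stk38l, a kinase related to the Lats kinases, had 808 counts with IL-17A and 524 with vehicle, 1.68-fold higher. The core genes, named after their values were seen, stood at 0.40 for Stk4, -0.18 for Stk3 and 0.32 for Sav1 on the log2 scale.

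Of 19 upstream and junction regulators, all measured, 0 were past 2-fold in either direction, against 8.88% of measured genes. Of them 12 were above 0 and the median was 0.10, or 0.07 over the 18 without Amotl2. Amot, an angiomotin like Amotl2, had 358 counts with IL-17A and 689 with vehicle, a log2 ratio of -0.82. The angiomotins thus lay on both sides of 0, since Amotl2 stood at 0.37. The protocadherin Fat1 stood at -0.79 and the scaffold Wwc1, also known as Kibra, at -0.67. Of the 15 genes of STRIPAK, a phosphatase complex that acts against Stk3 and Stk4, 13 were measured and 0 were past 2-fold, also against 8.88%, with a median of 0.07. The kinase Stk24 of that complex stood at 0.50, Pdcd10 at 0.29, Slmap at 0.23 and Strn at -0.21. Vgll3 and Vgll4 bind TEAD factors in place of YAP. Vgll4 had 1325 counts with IL-17A and 1169 with vehicle, a log2 ratio of 0.30, and Vgll3, named after its value was seen, had 7356 counts with IL-17A and 8215 with vehicle, a log2 ratio of -0.04. With them, 1 of the 8 measured genes among 10 coactivators, TEAD factors and TEAD cofactors was past 2-fold, against 8.88% of measured genes. It was Tead4, already counted among the 10 Hippo genes, and the median of the list was 0.05. Vgll2 had 1 count in each library, and the count table has no row named Vgll1.

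**Figure D5:**
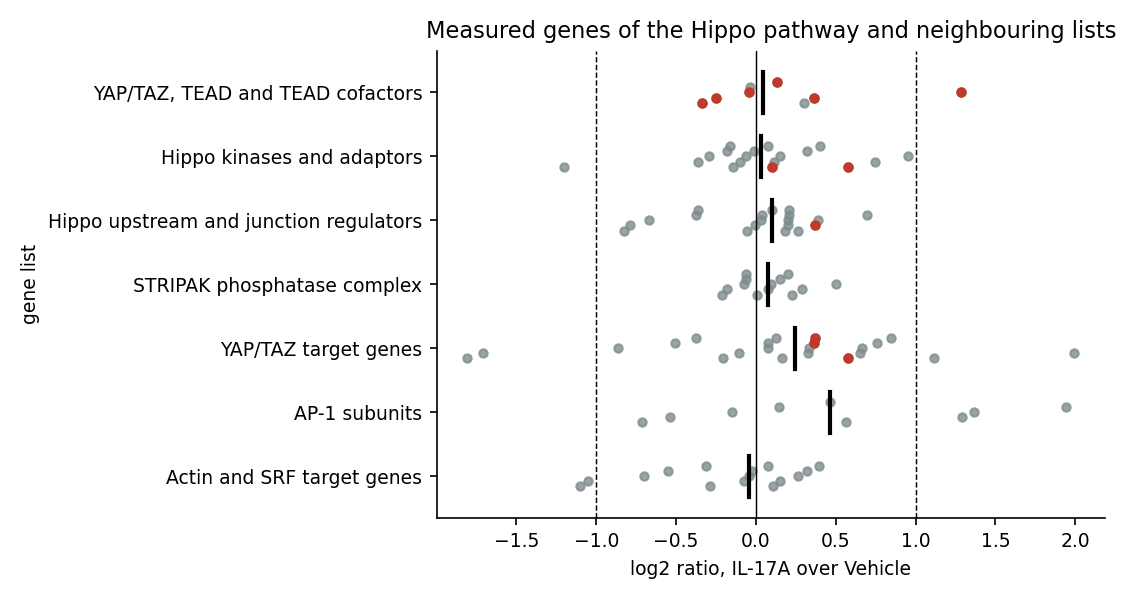
Log2 ratio of IL-17A over vehicle for each measured gene of 7 lists, with the 10 Hippo genes in red, other genes in grey, a black bar at each list's median and dashed lines at 2-fold. Most genes of the 4 lists of Hippo components lie within 2-fold, while the target list reaches farther on both sides and the AP-1 list on the right.

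The cells carried the fibroblast label's markers, all 9 of which were measured, summing to 40937 CPM with IL-17A and 55454 CPM with vehicle and led by Col1a1 with 348690 counts with IL-17A and 590781 with vehicle. Of the 9, 3 were above 0. Dcn, named with Fap and Lum after the values were seen, had 96320 counts with IL-17A and 17022 with vehicle, 6.15-fold higher. Fap was 2.33-fold lower, and Lum stood at 0.19 on the log2 scale. The mural cell list differed between the libraries. Its 5 genes summed to 109.7 CPM with IL-17A and 255 CPM with vehicle. Of the 4 measured ones, 3 were at least 2-fold lower, Cspg4, Notch3 and Kcnj8, against 3.69% of measured genes. Among the 25% of measured genes with the lowest mean CPM, which include Kcnj8, 9.04% were at least 2-fold lower. Cspg4 was the most abundant at 46.5 CPM with IL-17A and 116 CPM with vehicle. The leukocyte list of 6 genes summed to 249 CPM with IL-17A and 177 CPM with vehicle, and its most abundant gene Lyz2 gave 227 CPM with IL-17A and 153 CPM with vehicle. Of the 5 measured genes of that list, 3 were above 0 and 2 below. The pan-leukocyte gene Ptprc, named after its value was seen, had 88 counts with IL-17A and 87 with vehicle, and Cd3e had none in either library. Cd68, Adgre1 and Itgam were also named after their values were seen. Cd68 had 168 counts with IL-17A and 270 with vehicle, Adgre1 170 and 194, and Itgam 84 and 47. The other lists were low. The 7 melanocyte and Schwann cell genes, of which Sox10 was highest over both libraries together, summed to 13.1 CPM with IL-17A and 12.1 CPM with vehicle. The 5 endothelial genes, of which Cdh5 was highest over both libraries together, came to 5.87 CPM with IL-17A and 6.12 CPM with vehicle. Of the 3 measured ones, 2 were above 0 and 1 was at least 2-fold lower, against 3.69% of measured genes. It was Tek, named after its value was seen, with 18 counts with IL-17A and 49 with vehicle, 2.50-fold lower. Tek is among the 25% with the lowest mean CPM, of which 9.04% were at least 2-fold lower. Cdh5 had 47 counts with IL-17A and 33 with vehicle. Pecam1 and Kdr, not measured and named after their values were seen, had 33 and 10 counts with IL-17A and 11 and 31 with vehicle. The 6 keratinocyte genes, led by Krt10, came to 3.17 CPM with IL-17A and 2.20 CPM with vehicle, and the 3 adipocyte genes, led by Adipoq, to 0.478 CPM with IL-17A and 1.56 CPM with vehicle. Krt1 and Tyr had no count in either library, where the floor of 3 counts is 0.127 CPM with IL-17A and 0.123 CPM with vehicle. The part of these cell types in the Hippo ratios was not tested.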

How the data were processed

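Polyadenylated RNA of both cultures was sequenced from Illumina's stranded preparation, per the labels. The table deposited by the authors gives whole-number counts for each gene symbol and library, with no normalization. STAR, featureCounts and mm10 are named in the submitters' processing notes. Versions, annotation, strand setting and handling of multi-mapped reads are not stated in the sources used here. Total counts were 23559416 (IL-17A) and 24427027 (vehicle).

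TMM factors from edgeR 4.0.16 (R 4.3.3) scaled the libraries, and ratios were taken as IL-17A over vehicle. With 1 library per group edgeR's test has no residual degrees of freedom, so genes with at least 50 summed counts were described by a size rule of 2-fold. Intervals came from scipy 1.17.1. The calculation was tested on simulated Poisson counts, which hold counting error only. Spread between cultures and PCR copies were not simulated, so the test checks the arithmetic and not the libraries. Exon lengths and positions came from GENCODE M21, and promoters from RefSeq, both on GRCm38.

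The genes and lists were chosen with earlier results of these data known. The text names all 10 Hippo genes, in each list the 4 largest absolute log2 ratios and any gene past 2-fold, and each cell type's most abundant marker, except 1 gene that is not reported here. Other names are said to be chosen after their values were seen. Other scalings (total count, upper quartile, DESeq2 1.42.0 size factors), minimums, folds, a prior count of 2 and another length were tried.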

Additional observations from a re-analysis of the deposited data

How the results depend on the processing

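No paired analysis was possible because each group holds 1 library and no test was run. Leaving out a library was not possible for the same reason. The count of 1 Hippo gene higher and 0 lower held under all scalings, minimums and the prior count, and at 1.5-fold, and became 0 higher at 3-fold. The target list had 2 genes higher, 6 at 1.5-fold and 1 at 3-fold, and 2 lower, 3 at 1.5-fold and 2 at 3-fold. The log2 ratio of Tead4 ranged from 1.22 to 1.28 and that of Lats2 from 0.51 to 0.57. Per-length ratios depended on the length chosen, an alternative added after seeing the data. With the longest coding transcript in place of merged exons, Wwtr1 over Yap1 was 0.943 with IL-17A and 0.713 with vehicle (merged exons: 2.06 with IL-17A, 1.56 with vehicle). Tead1 over Tead3 was 0.991 with IL-17A and 0.762 with vehicle (merged exons: 1.76 with IL-17A, 1.35 with vehicle), and Tead3 over Tead2 was 1.17 with IL-17A and 1.10 with vehicle (merged exons: 0.680 with IL-17A, 0.638 with vehicle). Lats2 over Lats1 with vehicle was 1.28 (merged exons: 0.968). Depth limits Tead4 and Ankrd1 most, with 75 and 215 counts with vehicle.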

Other observations

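AP-1 factors bind many enhancers together with TEAD factors, and actin and its SRF target genes respond to the same mechanical cues as YAP and TAZ. Of 10 AP-1 genes, 9 were measured, with a median log2 ratio of 0.46. With IL-17A, 3 were at least 2-fold higher and 0 at least 2-fold lower, against 5.19% and 3.69% of measured genes. Batf had 170 counts with IL-17A and 48 with vehicle, 3.85-fold higher (95% counting interval 2.78 to 5.42). Fosl1 had 685 counts with IL-17A and 289 with vehicle, 2.58-fold higher (interval 2.24 to 2.97), and Junb had 4326 with IL-17A and 1925 with vehicle, 2.44-fold higher (interval 2.31 to 2.58). Atf3 stood at -0.71 on the log2 scale, with 92 counts with IL-17A and 164 with vehicle.

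The list of actin and SRF target genes held 15 genes, all measured, with the regulators Srf, Mrtfa and Mrtfb among them. Of the 15, 0 were at least 2-fold higher and 2 at least 2-fold lower, against 5.19% and 3.69% of measured genes. The median was -0.04, with 9 below 0. Srf, Mrtfa and Mrtfb, named after their values were seen, stood at log2 ratios of 0.40, -0.03 and 0.08. The median without them was not computed. The smooth-muscle genes Actg2 and Cnn1 stood at -1.10 and -1.05, Tpm2 at -0.70 and the focal adhesion protein Vcl at -0.55. The actin list and the YAP/TAZ target list thus had medians of -0.04 and 0.24 in the same pair of libraries. The difference between the lists was not tested.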
